A study of Mus musculus with 6 samples.

Results

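The genes described here are 42 genes of the mouse lysosome: soluble hydrolases, membrane proteins of the organelle, subunits of its proton pump, its calcium channel mucolipin-1 and the transcription factor TFEB. They were picked out on the array by symbol, from a list drawn up for this organelle with earlier results of these data known. Each was represented by its brightest probe set over all arrays. All 42 of the 42 were measured, out of 18193 genes on the array. The samples were uterine epithelium freed from uterine pieces with pancreatin and dispase, and each of 6 Affymetrix expression arrays held RNA of 1 sample. Arrays 302 and 303 held wild-type (WT) epithelium of pregnancy day 1, when the plug was found. WT mice on day 4 gave arrays 277 and 284. Mice on day 4 that were heterozygous for Sox17, with a GFP allele beside a normal one (Sox17 GFP/+), gave arrays 253 and 281. Heterozygous mice on day 1 were not analysed here, the labels name no driver that would limit the GFP allele to the epithelium, and the ages of the mice are not given in the sources used here.

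The lysosome is the acidic compartment in which cells break down proteins, sugars, lipids and nucleic acids taken up from outside or delivered by autophagy. Its hydrolases are made in the endoplasmic reticulum, tagged with mannose phosphate, carried by mannose phosphate receptors and activated by the low pH that the vacuolar proton pump maintains. In the uterus, the luminal and glandular epithelium takes up and secretes material at the lumen under the control of estrogen and progesterone, and cathepsins are among its secreted enzymes. SOX17 is a transcription factor of that epithelium.

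The trimmed mean signal was 500 on each array. WT day 4 array 277 stood apart in the dim range, with a median signal of 138, where the rest had 66.2 to 78.0. The lysosomal genes were mostly bright: only Ctsk and Tfeb read below 50 on any array, and the median absolute log2 difference within a pair of arrays was 0.15 on day 1, 0.35 in WT on day 4 and 0.17 in heterozygotes, against 0.32, 0.59 and 0.28 over all genes. The labelled tissue carried its markers on every array. The summed signal of 12 epithelial markers was 188208 to 193885 on day 1, 165655 to 179146 in WT on day 4 and 174269 to 174436 in heterozygotes, and none of the 12 was below 50. Nothing states that the 2 samples of a group came from separate animals, so p-values reflect the spread of these 2 samples, which may be technical.

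The comparison of WT epithelium on day 4 with day 1 asks how the lysosomal genes differ between the start of pregnancy and the time at which the uterus becomes ready for the embryo. Many hydrolases were far lower on day 4, and cathepsin D was higher. At an adjusted p under 0.05 (limma, Benjamini-Hochberg over the whole table), 16 of the 42 genes fell and 1 rose, while 25 did not pass. Over all genes, 5.73% were called lower and 7.58% higher, 13.3% in all. Because the 42 were chosen with earlier results of these data known, setting them beside all genes is not an independent test. The median log2 change of the 42 was -1.10, with quartiles of -1.72 and -0.19, and the median of all genes was 0.30. Both day 4 arrays were below both day 1 arrays for 32 of the 42, against 21.3% of all genes, and above them for 5, against 35.4%. The 16 that fell were Ctsa, Ctsc, Ctsh, Ctsl, Ctss, Ctsz, Tpp1, Gla, Glb1, Gusb, Arsb, Gm2a, Acp5, Cd68, Atp6v1b2 and Atp6ap1, and their log2 changes ran from -1.28 to -5.01. The count depended on the day 1 pair: without array 302 or without array 303, limma called 0 of the 42 and 0 genes in all, although 20 and 24 of the 42 had an unadjusted p under 0.05. Without heterozygous array 253 or 281, which add to the estimate of the spread, 6 fell and 0 rose. With an intensity trend in eBayes, chosen as an alternative, 25 fell and 4 rose, beside 10.8% and 14% of all genes. In bulk RNA, fewer cells of a type and less RNA per cell cannot be told apart.

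**Figure D1:**
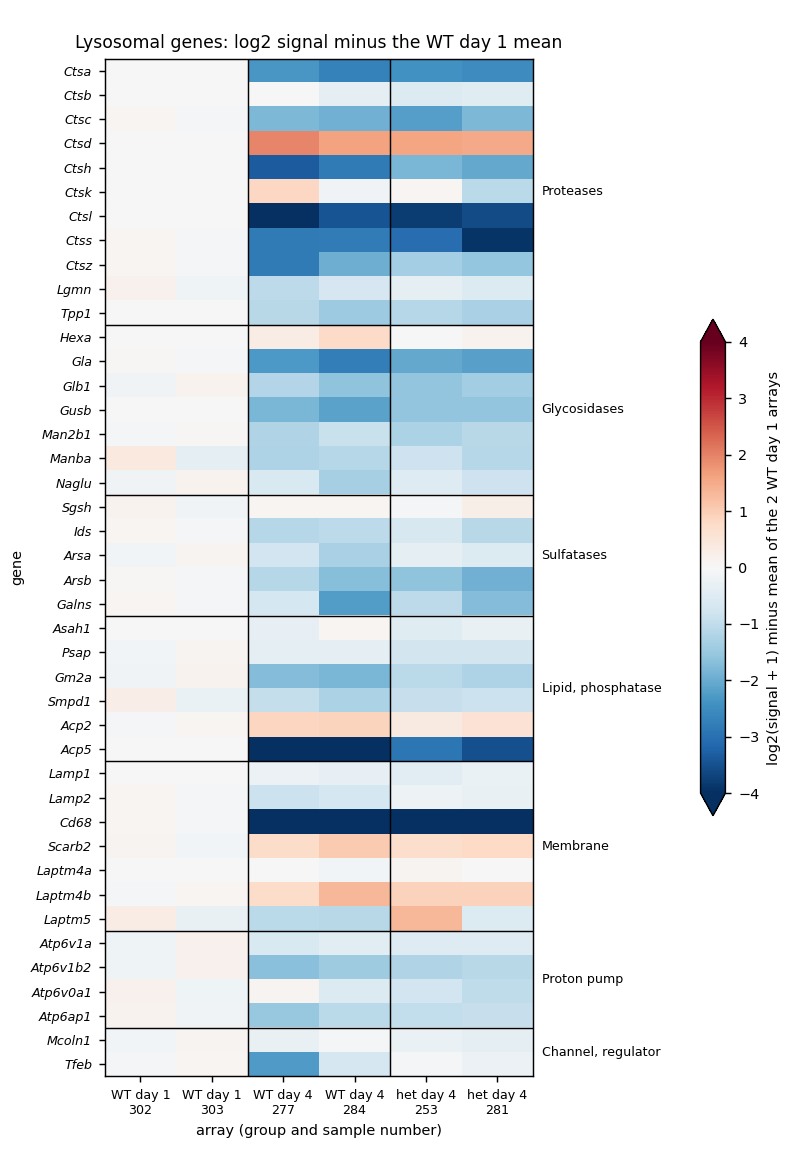
Each cell is the log2(signal + 1) of a gene on an array minus the mean of the 2 WT day 1 arrays (colour, capped at 4 either way), with genes in rows by role and arrays in columns. Blue prevails on all 4 day 4 arrays, Ctsd is red on all 4, and Cd68, Acp5, Ctsl and Ctsh are among the darkest rows.

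Promoters of many lysosomal genes are known to carry E-box motifs to which TFEB binds, and matches in the promoters of the 42 are shown here. A part of TFEB in the changes with day was not tested. RefSeq windows of 250 bases before to 50 bases after the start (GRCm38.p6) were found for 36 of the 42 genes, as 43 entries. The core CACGTG was in 12 of the 43 entries (27.9%), against 8.72% of the promoters of genes on the array. Its extension TCACGTGA, which contains the core, was in 5 entries (11.6%), against 1.37%. A longer motif was searched as well, TCACGTGA with a G directly before it and a C directly after it. It was in 0 of the 43 entries, against 0.497% of the promoters of genes on the array. Each motif is its own reverse complement, so both strands were searched at once. These 5 entries with TCACGTGA are printed 5′ to 3′ on the strand of the gene, followed by Lamp1, whose promoter held the core 4 times. Capitals mark the 1 match whose distance is given, and further copies of the core in the Mcoln1 and Lamp1 windows are in lower case.
Ctsd, chr7:142387893-142387952, minus strand, match 98 bases before the start: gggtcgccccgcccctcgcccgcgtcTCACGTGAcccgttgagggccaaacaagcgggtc
Ctsa, chr2:164833734-164833772, plus strand, match 12 bases before the start: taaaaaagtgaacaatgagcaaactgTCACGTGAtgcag
Gla, chrX:134601200-134601255, minus strand, match 227 bases before the start: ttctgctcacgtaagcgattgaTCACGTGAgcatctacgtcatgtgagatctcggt
Atp6v1a, chr16:44139358-44139417, minus strand, match 131 bases before the start: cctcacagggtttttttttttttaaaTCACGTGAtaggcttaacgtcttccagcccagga
Mcoln1, chr8:3500447-3500506, plus strand, match 45 bases before the start: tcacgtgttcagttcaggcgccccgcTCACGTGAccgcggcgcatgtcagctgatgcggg
Lamp1, chr8:13159106-13159160, plus strand, match 28 bases before the start: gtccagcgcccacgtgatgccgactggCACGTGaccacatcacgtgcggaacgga
Of the 12 genes whose promoter held the core, 4 fell with day, 1 rose and 7 did not pass, with a median log2 change of -0.92. Of the 24 whose promoter window did not hold it, 10 fell and 14 did not pass, with a median of -1.16. Ctsd, which rose, and Ctsa and Gla, which fell, all carried TCACGTGA, and Atp6v1a and Mcoln1, which also carried it, did not pass. A match describes these letters in this window and not a bound site.

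Among the 11 proteases, 7 fell, Ctsd rose and 3 did not pass, and the median log2 change was -1.87. Cathepsin L is a cysteine protease with broad activity. Ctsl read 35346 and 35692 on the day 1 arrays, 1807 and 3250 in WT on day 4, and 2553 and 2947 in heterozygotes. Both day 1 arrays were far above all 4 day 4 arrays, and the genotypes overlapped. The fall with day was -3.87 ± 0.34 on the log2(signal + 1) scale (limma standard error, 2 arrays a group, adjusted p = 0.00937), or 14.7-fold. Cathepsin H, an aminopeptidase, read 16531 and 16867 on day 1, 1658 and 2327 in WT on day 4, and 4714 and 4066 in heterozygotes. The 3 groups did not overlap, and the heterozygous arrays lay between the others. Ctsh fell by 3.09 ± 0.25 with day (limma adjusted p = 0.00866), and its other probe set gave -2.97 ± 0.27. Cathepsin A, a carboxypeptidase that also protects beta-galactosidase and sialidase from degradation, read 12105 and 12468, then 2448 and 1900.4, then 2297 and 2153 in the same order of groups. The day 4 groups overlapped, both well below day 1, with a change of -2.51 ± 0.22 (limma adjusted p = 0.00933).

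Cathepsin S, a cysteine protease known from antigen-presenting cells, read 6369 and 5832 on day 1, 862 and 874 in WT on day 4, and 741 and 400.3 in heterozygotes. It fell by 2.81 ± 0.35 with day (limma adjusted p = 0.017), and it was the one gene of the 16 whose heterozygous arrays were both below both WT day 4 arrays. Cathepsin Z, a carboxypeptidase, read 8549.6 and 7553, then 1125 and 2069, then 3126.5 and 2741. Its 3 groups did not overlap, and it fell by 2.40 ± 0.36 with day (limma adjusted p = 0.0245). The other probe sets of Ctsz gave -1.83 ± 0.22 and -1.70 ± 0.35. Cathepsin C, which activates serine proteases of granules, read 3723 and 3269.5, then 994 and 916, then 764 and 1004. Its day 4 groups overlapped below day 1, with a change of -1.87 ± 0.24 (limma adjusted p = 0.0174). Tripeptidyl peptidase 1 read 6772 and 6825, then 3162 and 2473, then 3103 and 2750.4. Tpp1 had the smallest fall of the 7, -1.28 ± 0.22 (limma adjusted p = 0.0343), and its day 4 groups overlapped. Its other probe set gave -0.47 ± 0.30 and did not pass (limma over all probe sets, adjusted p = 0.4).

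Cathepsin D, the main aspartic protease of the lysosome, went the other way. It read 11083 and 10924 on day 1, 43043 and 33892 in WT on day 4, and 32677 and 31329 in heterozygotes. All 4 day 4 arrays were above both day 1 arrays, and the rise in WT was 1.80 ± 0.21 (limma adjusted p = 0.0159), or 3.47-fold. Cathepsin B, a cysteine protease that was bright throughout, read 29814 and 29982 on day 1, 29769.7 and 23221 in WT on day 4, and 20363 and 21469 in heterozygotes. WT day 4 array 277 lay close to the day 1 arrays and array 284 was lower. The day change of Ctsb, -0.19 ± 0.22, did not pass (limma adjusted p = 0.623, 95% interval -0.77 to 0.40). Its other probe sets gave day changes from -0.55 to 1.19. Cathepsin K, known as the collagenase of osteoclasts, was dim, at 75.5 and 78.8, then 137.5 and 69.7, then 81.3 and 35.8, and its groups overlapped. The asparaginyl protease gene Lgmn had a day change of -0.87 ± 0.25 that did not pass (limma adjusted p = 0.0982).

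**Figure D2:**
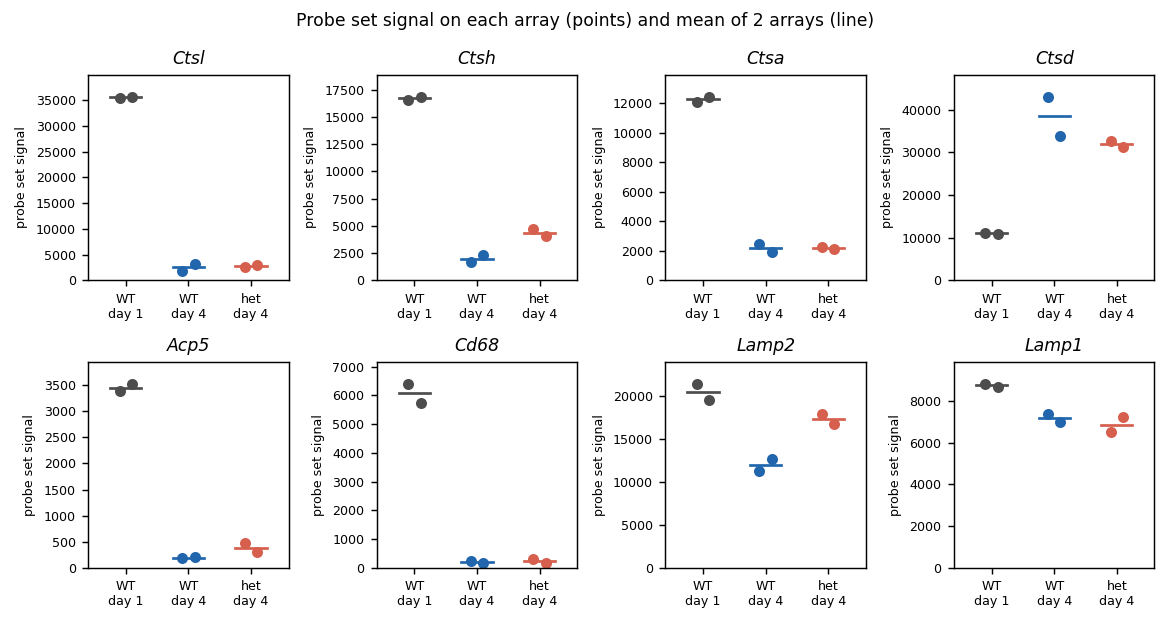
Points are probe set signals on single arrays of WT day 1, WT day 4 and Sox17 heterozygous day 4 epithelium, the line is the mean of the 2 arrays, and each linear axis starts at 0. Ctsl, Ctsh, Ctsa, Acp5 and Cd68 were high on the day 1 arrays alone, Ctsd was low on them alone, and the heterozygous arrays of Ctsh, Acp5 and Lamp2 lay between the WT groups.

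Of the 7 glycosidases, which cut sugars from glycolipids and glycoproteins, 3 fell and 4 did not pass, and the median log2 change was -1.20. Alpha-galactosidase A, the enzyme lost in Fabry disease, read 846 and 803 on day 1, 168.5 and 121 in WT on day 4, and 199.5 and 182 in heterozygotes. All day 4 arrays were below day 1, with the heterozygous arrays slightly above the WT ones, and Gla fell by 2.52 ± 0.24 (limma adjusted p = 0.0109). Its other probe sets were dimmer and disagreed, at -3.01 ± 0.47 and 2.59 ± 0.65. Beta-glucuronidase read 3212 and 3235, then 902 and 735, then 1068.5 and 1081. Gusb fell by 1.98 ± 0.21 (limma adjusted p = 0.0121), and its other probe set gave -2.33 ± 0.33. Beta-galactosidase, in wide use as a stain for senescent cells, read 2626 and 3195, then 1291 and 950.3, then 976 and 1101. Glb1 fell by 1.39 ± 0.26 (limma adjusted p = 0.0395), and its day 4 groups overlapped. Alpha-mannosidase, Man2b1, lay just outside the threshold, with 3766 and 4048, then 1686 and 2109.9, then 1625 and 1791. Its day change of -1.05 ± 0.22 had a limma adjusted p of 0.05 and did not pass, although both WT day 4 arrays were below both day 1 arrays. Hexosaminidase A, which degrades ganglioside GM2 with the product of Gm2a, read 3860 and 4025, then 4804 and 6725, then 3958 and 4365. Its WT day 4 arrays were the highest, but the change of 0.53 ± 0.25 did not pass (limma adjusted p = 0.247). Manba and Naglu had day changes of -1.20 and -0.97 that did not pass.

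Among the 5 genes for enzymes that degrade sulfated sugars and lipids, Arsb fell and 4 did not pass, with a median log2 change of -1.10. Arylsulfatase B read 611 and 576 on day 1, 267 and 182.5 in WT on day 4, and 194.7 and 157 in heterozygotes. The day 4 groups overlapped below day 1, and the change was -1.42 ± 0.28 (limma adjusted p = 0.0447). The other probe sets of Arsb were dimmer and disagreed, at -3.91 ± 0.96 and 0.49 ± 0.95. Arylsulfatase A, which degrades sulfatide, read 858.5 and 1014.5, then 552 and 378, then 712 and 638. Its 3 groups did not overlap, but the day change of -1.03 ± 0.27 did not pass (limma adjusted p = 0.0859). Ids and Galns had day changes of -1.10 and -1.46 that did not pass, and Sgsh, a sulfamidase, had one of 0.08 ± 0.22. The probe sets of Galns disagreed: its other one gave 3.39 ± 0.59 (limma over all probe sets, adjusted p = 0.0417). That probe set was dim, at 7.3 and 3.7 on day 1 and 107.6 and 38.5 in WT on day 4.

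Of 6 genes for lipid degradation and phosphatases, Acp5 and Gm2a fell and 4 did not pass, with a median of -0.74. Tartrate-resistant acid phosphatase, a marker of osteoclasts and some macrophages, read 3383 and 3528 on day 1, 184.5 and 201 in WT on day 4, and 466 and 303 in heterozygotes. Its 3 groups did not overlap. Acp5 fell by 4.16 ± 0.28 with day (limma adjusted p = 0.00731), or 17.8-fold. The GM2 activator, which lifts the ganglioside out of the membrane for hexosaminidase A, read 2288 and 2741, then 759 and 697, then 1176 and 1060.2. Gm2a fell by 1.78 ± 0.21 (limma adjusted p = 0.0156), and its heterozygous arrays again lay between the WT groups. Its other probe sets were dimmer and gave -0.96 ± 0.26 and -0.14 ± 0.74. Asah1 (acid ceramidase), Psap (the saposin precursor) and Smpd1 (acid sphingomyelinase) had day changes of -0.12, -0.36 and -1.11, and the acid phosphatase gene Acp2 one of 0.88 ± 0.20. None of these 4 passed.

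Of the 7 membrane proteins, 1 fell and 6 did not pass, and the median log2 change was -0.28. CD68, a heavily glycosylated protein of late endosomes that is used as a macrophage marker, read 6401 and 5746 on day 1, 224 and 157 in WT on day 4, and 308 and 167 in heterozygotes. All day 4 arrays were far below day 1 and the genotypes overlapped. The fall of 5.01 ± 0.39 (limma adjusted p = 0.00822), 32.1-fold, was the largest of the 42. LAMP1, one of the main structural proteins of the lysosomal membrane, read 8836 and 8706, then 7389 and 7026, then 6518 and 7245.5. Its day change of -0.28 ± 0.19 did not pass (limma adjusted p = 0.388), and the 95% interval ran from -0.79 to 0.22. LAMP2, which also serves chaperone-mediated autophagy, read 21401 and 19578, then 11227 and 12657, then 17898 and 16711.5. The 3 groups of Lamp2 did not overlap, and the day change of -0.78 ± 0.20 did not pass (limma adjusted p = 0.0767). Laptm4a, Laptm4b and Scarb2, the receptor that carries beta-glucocerebrosidase to the lysosome, had day changes of -0.07, 1.02 and 0.90 that did not pass. For Scarb2 the probe sets disagreed: its other one gave -1.69 ± 0.25 (limma over all probe sets, adjusted p = 0.029). In the same fit the other probe sets of Laptm4b gave 1.21 ± 0.23 and 0.85 ± 0.35 (limma adjusted p = 0.0491 and 0.219). Laptm5, known from blood cells, read 842 and 567, then 325 and 317, then 1740.1 and 471. Heterozygous array 253 was by far the highest, and the day change of -1.10 ± 0.69 did not pass.

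Of the 4 proton pump genes, 2 fell, with a median of -0.91. The B2 subunit of the catalytic domain read 4732 and 6083 on day 1, 1682 and 2005 in WT on day 4, and 2340.2 and 2508 in heterozygotes. Its 3 groups did not overlap, and Atp6v1b2 fell by 1.55 ± 0.24 (limma adjusted p = 0.0257). The accessory protein Atp6ap1 read 8402 and 6958, then 2653 and 3659, then 3864 and 4028. It fell by 1.29 ± 0.26 (limma adjusted p = 0.0449), also with no overlap between the 3 groups. The a1 subunit of the membrane domain read 458 and 355, then 435 and 278, then 238 and 198. The WT groups of Atp6v0a1 overlapped, and its day change was -0.21 ± 0.32 (limma adjusted p = 0.706). Atp6v1a, the catalytic A subunit, had a day change of -0.53 ± 0.23 that did not pass, whereas its other probe set gave -1.55 ± 0.23 (limma over all probe sets, adjusted p = 0.030).

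Neither the channel nor the regulator passed with day. Mucolipin-1, the calcium channel of the lysosome, read 719 and 822 on day 1, 622 and 742 in WT on day 4, and 634 and 602 in heterozygotes. The WT groups overlapped, and Mcoln1 had a day change of -0.18 ± 0.21 (limma adjusted p = 0.624). TFEB, the transcription factor that raises many lysosomal genes when it enters the nucleus, was dim. Tfeb read 139.8 and 154, then 29.6 and 92.0, then 143 and 126. Both WT day 4 arrays were below the other 4, and array 277, which stood apart, was the lowest. The day change of -1.47 ± 0.57 did not pass (limma adjusted p = 0.183). Signals give the RNA of Tfeb and not the location of its protein.

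**Figure D3:**
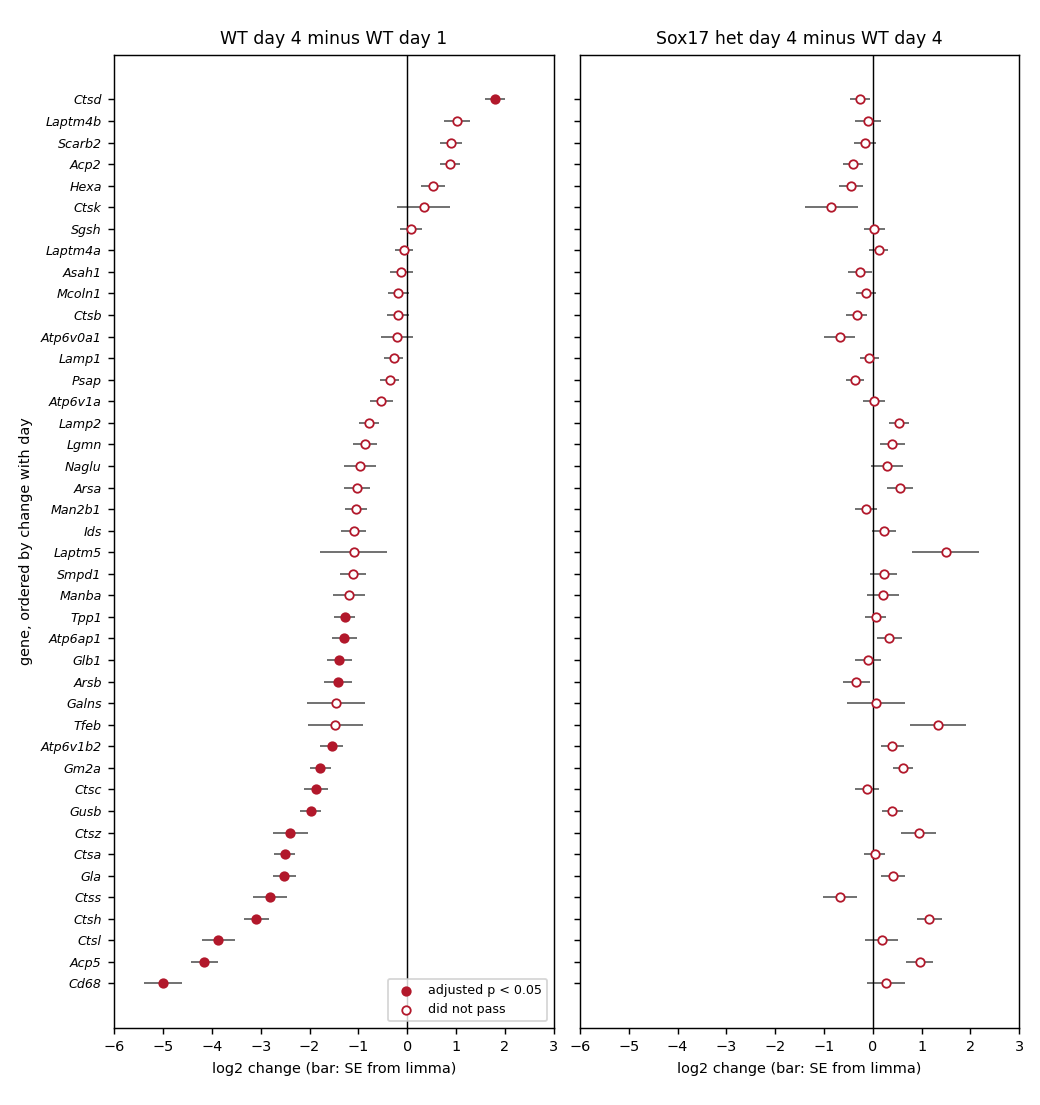
Log2 changes of the 42 genes with day (left) and with genotype (right), ordered by the change with day; bars are limma standard errors and filled points passed an adjusted p of 0.05. On the left 16 genes below 0 and 1 above it are filled, from Cd68 at -5.01 to Ctsd at 1.80, and on the right none is filled.

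The comparison of Sox17 heterozygous with WT epithelium on day 4 asks what the loss of 1 normal Sox17 allele does to these genes. No lysosomal gene passed: limma with Benjamini-Hochberg adjustment called 0 of the 42, as it called 0% of all genes, and the smallest adjusted p among the 42 was 0.235, for Ctsh. At an unadjusted p under 0.05, 4 were higher and 0 lower, beside 4.56% and 8.66% of all genes. These were Ctsh, Acp5, Gm2a and Lamp2. The median log2 difference of the 42 was 0.06, with a range from -0.85 to 1.49, and the median of all genes was -0.20. Both heterozygous arrays were above both WT day 4 arrays for 16 of the 42, against 18% of all genes, and below them for 7, against 30.6%. The precision was limited: for 20 genes the 95% interval of the difference stayed within 1 of 0 on the log2 scale, and for 22 it reached past 1 on some side.

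Ctsh, whose 6 signals are given with the proteases, was 1.16 ± 0.25 higher in heterozygotes on the log2(signal + 1) scale, with a 95% interval from 0.48 to 1.84. Its second probe set read 1253 and 1204 in WT on day 4 and 2857 and 2158 in heterozygotes, a difference of 1.01 ± 0.27. Ctsh was the one gene of the 42 called with an intensity trend in eBayes (limma adjusted p = 0.00714), where 1.93% of all genes were called higher and 1.59% lower. In the same kind of fit, that call was lost without heterozygous array 253. Which further genes of the 42 were called changed with the array left out, as did the number called over all genes. Acp5 was 0.96 ± 0.28 higher (limma adjusted p = 0.301), Gm2a 0.62 ± 0.21 higher (0.351) and Lamp2 0.54 ± 0.20 higher (0.372). All 4 probe sets of Lamp2 read higher in heterozygotes, with differences from 0.54 to 1.09. None of these differences passed.

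The 2 largest differences with genotype came with wide errors. Laptm5 differed by 1.49 ± 0.69, on a heterozygous pair of 1740.1 and 471, and Tfeb by 1.34 ± 0.57 (limma adjusted p = 0.426 and 0.414). Ctsz differed by 0.94 ± 0.36, Ctsk by -0.85 ± 0.54, Atp6v0a1 by -0.68 ± 0.32, Ctss by -0.67 ± 0.35 and Arsa by 0.56 ± 0.27, and none passed. Ctsd differed by -0.26 ± 0.21, with an interval from -0.83 to 0.32, and Lamp1 by -0.07 ± 0.19, with an interval from -0.57 to 0.44. For Ctsa and Ctsl the genotypes overlapped, with differences of 0.04 ± 0.22 and 0.18 ± 0.34. The WT day 4 arrays of Psap read 10386 and 10465 and the heterozygous arrays 8117 and 8123, both lower, and its difference of -0.36 ± 0.19 did not pass. Those of Acp2 read 1045 and 1059.9, with heterozygous arrays at 735 and 854, again both lower, with a difference of -0.41 ± 0.20 that did not pass.

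Set against WT day 1, where genotype and day differ together, heterozygous epithelium had 14 lysosomal genes lower and 1 higher in limma with Benjamini-Hochberg adjustment, and 27 that did not pass, beside 4.48% and 5.07% of all genes (9.55% in all). The median log2 difference of the 42 was -0.88, and of all genes 0.01. Both heterozygous arrays were below both day 1 arrays for 32 of the 42, against 30.1% of all genes, and above them for 4, against 32.2%. This comparison shares the day 1 arrays with the comparison by day and the heterozygous arrays with the comparison by genotype, so the values are given side by side only. Ctsl was -3.69 here and -3.87 in WT, Cd68 -4.73 and -5.01, Acp5 -3.20 and -4.16, Ctsh -1.93 and -3.09, and Ctsd 1.54 and 1.80. Ctsz was -1.46 here with a limma adjusted p of 0.0824, and Man2b1 -1.19 with one of 0.0456. As with the comparison by day, 0 of the 42 and 0 of all genes were called without array 302 or 303, and the same held without array 253 or 281. All 16 genes that fell with day in WT had both heterozygous arrays below both day 1 arrays. In 8 of the 16 (Ctsh, Ctsz, Gla, Gusb, Gm2a, Acp5, Atp6v1b2 and Atp6ap1) both heterozygous arrays were also above both WT day 4 arrays, where 18% of all genes were, and the median difference of the 16 with genotype was 0.31. The WT day 4 arrays that defined the falls enter these genotype differences too.

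Other genes of the lysosome, from lists of the same pathway likewise chosen with earlier results known, had medians closer to 0 with day. Of 21 other lysosomal enzymes measured, of 26 listed, 5 fell and 4 rose with day in limma, beside 5.73% and 7.58% of all genes. Their median log2 change was -0.17. Galactosylceramidase, Galc, and the fucosidase Fuca1 fell by 2.67 ± 0.33 and 1.81 ± 0.21 (adjusted p = 0.0169 and 0.0152), while Lipa, the acid lipase, and Ppt1, a thioesterase, rose by 2.84 ± 0.23 and 2.11 ± 0.22 (adjusted p = 0.00853 and 0.0127). Lipa read 476 and 385 on day 1, 3414 and 2774 in WT on day 4, and 931 and 916 in heterozygotes. Its heterozygous arrays lay between the WT groups, 1.73 ± 0.23 below WT day 4, and did not pass (limma adjusted p = 0.163). Fuca1 read 16943 and 16250.2, then 5275 and 4229.9, then 8798 and 8985. It too lay between the WT groups, with a genotype difference of 0.91 ± 0.21 that did not pass (limma adjusted p = 0.241). With an intensity trend, Lipa was called lower and Fuca1 higher in heterozygotes (limma adjusted p = 0.000941 and 0.0115), beside 1.59% and 1.93% of all genes.

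Of 19 other lysosomal membrane and transport genes measured, of 22 listed, 3 rose and 2 fell with day, beside 7.58% and 5.73% of all genes. Their median was 0.04. The channel gene Mcoln2 read 34.2 and 28.9 on day 1, 733 and 716 in WT on day 4, and 650.1 and 490.2 in heterozygotes. All 4 day 4 arrays were far above day 1, and it rose by 4.48 ± 0.24 (limma adjusted p = 0.0062). Ostm1, the partner of a lysosomal chloride exchanger, rose by 1.87 ± 0.20 (0.0132), and Sidt2 and the iron transporter gene Slc11a2 fell by 1.28 ± 0.19 (0.0232) and 1.94 ± 0.33 (0.0329). Of 15 other proton pump subunits measured, of 16 listed, 3 rose and 1 fell, with a median of 0.55. Atp6v0d2, Atp6v1c2 and Atp6v1d rose by 2.05 ± 0.27, 3.18 ± 0.59 and 1.11 ± 0.22, and Atp6v0a4 fell by 2.97 ± 0.38 (limma adjusted p = 0.0193, 0.0395, 0.0442 and 0.0177). With the 2 pump genes of the 42 that fell, pump genes were thus called in both directions.

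Of 20 genes for sorting to the lysosome, 2 fell and 2 rose with day, beside 5.73% and 7.58% of all genes, with a median of 0.04. The mannose phosphate receptor genes M6pr and Igf2r both fell, by 1.33 ± 0.21 and 1.27 ± 0.21 (limma adjusted p = 0.0289 and 0.0318), and Sorl1 and Ap1m1 rose by 1.53 ± 0.26 and 1.20 ± 0.19 (0.0325 and 0.0274). M6pr read 13519 and 11129.6 on day 1, 4536 and 5230.4 in WT on day 4, and 6305 and 6157 in heterozygotes, so that the 3 groups did not overlap. Of 6 inhibitors of lysosomal proteases measured, of 9 listed, Cst3 fell. Cystatin C, the inhibitor of cysteine cathepsins that it encodes, is secreted, and Cst3 read 7627 and 7261, then 2093 and 1951, then 2015 and 2048, a fall of 1.88 ± 0.18 (limma adjusted p = 0.0112). Of 20 genes of nutrient sensing at the lysosome and the TFE factors measured, of 21 listed, 0 passed with day in limma, while 6 were higher and 1 lower at an unadjusted p under 0.05, beside 17.8% and 11.9% of all genes, and 5 were called higher and 1 lower with an intensity trend, beside 14% and 10.8%. Of 22 autophagy genes, 1 rose and 1 fell with day, beside 7.58% and 5.73% of all genes, with a median of 0.14. Atg4b rose by 0.98 ± 0.20 and Gabarapl1 fell by 1.55 ± 0.31 (limma adjusted p = 0.0467 and 0.0461). With genotype, limma called 0 of the 123 measured genes of these 7 lists, while 4 were higher and 11 lower at an unadjusted p under 0.05, beside 4.56% and 8.66% of all genes. With an intensity trend 2 were called higher and 5 lower, beside 1.93% and 1.59%.

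**Figure D4:**
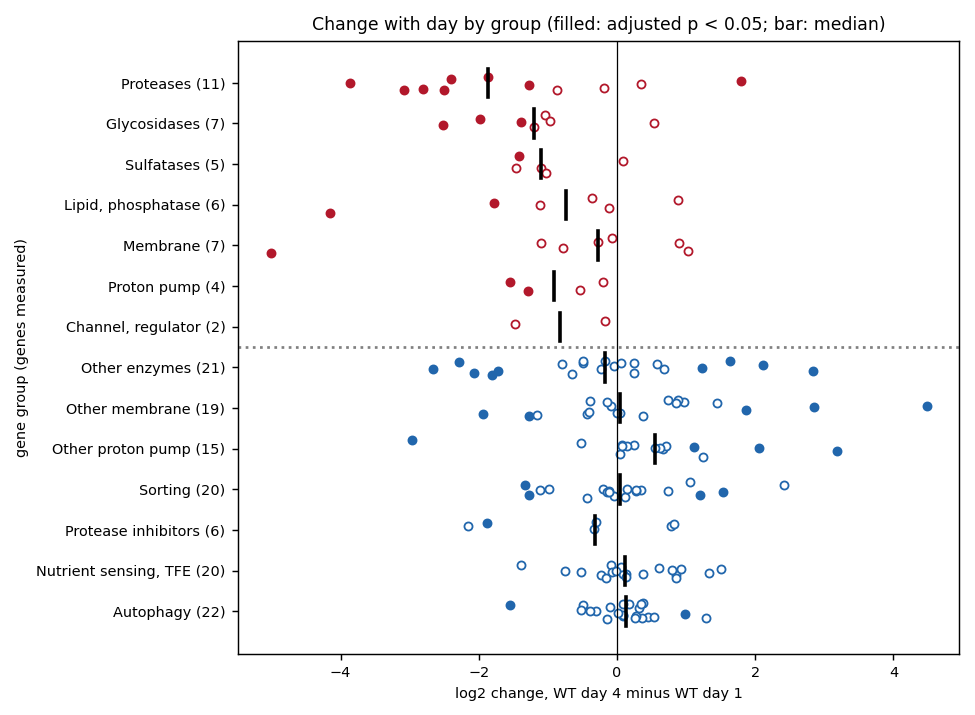
Each point is a gene's log2 change from WT day 1 to WT day 4, by role for the 42 genes (red, upper rows) and by list for other genes of the pathway (blue, lower rows); filled points passed a limma adjusted p of 0.05 and the black bar is the median. The medians of the upper rows run from -1.87 for proteases to -0.28 for membrane proteins, and those of the lower rows from -0.32 for protease inhibitors to 0.55 for other proton pump subunits.

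Cd68, Acp5, Ctss and Laptm5 are known from macrophages or osteoclasts, so markers of such cells were read on the same arrays. Of 17 macrophage markers measured, of 18 listed, 12 stayed under a signal of 300 on every array. Their summed signal was 17828 to 19119 on day 1, 17732 to 17844 in WT on day 4 and 13920 to 14604 in heterozygotes, most of it from Cd14. With day, 2 macrophage markers rose and 1 fell in limma, beside 7.58% and 5.73% of all genes. Of the 17, 13 were above 0, and the median log2 change of these markers was 1.06. Array 277, which stood apart in the dim range, gave much of this: set against the day 1 mean the median was 1.76 on array 277 and 0.36 on array 284. Adgre1, which encodes F4/80, read 44.7 and 51.1 on day 1, 199 and 72.9 in WT on day 4, and 58.6 and 86.3 in heterozygotes. Both WT day 4 arrays were above both day 1 arrays. The growth factor receptor gene Csf1r read 139 and 239, then 619 and 235, then 194 and 158, and its WT groups overlapped. Lysozyme, Lyz2, read 177 and 237, then 1223 and 980.4, then 956 and 942, and rose by 2.42 ± 0.25 with day (limma adjusted p = 0.0123). The integrin gene Itgam read 2373 and 2012, then 35.9 and 10.8, then 179 and 49.9. It moved as Cd68 and Acp5 did and fell by 6.71 ± 0.85 (limma adjusted p = 0.0175). No marker was at 0, and without detection calls a dim signal cannot be placed against background. The summed signal of 6 osteoclast-like markers was 499 to 514 on day 1, 242 to 720 in WT on day 4 and 297 to 326 in heterozygotes. With genotype, the median difference of the macrophage markers was -1.12, where that of all genes was -0.20. In limma 0 of 17 were called, by default or with an intensity trend. At an unadjusted p under 0.05, 0 were higher and 4 lower, beside 4.56% and 8.66% of all genes.

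**Figure D5:**
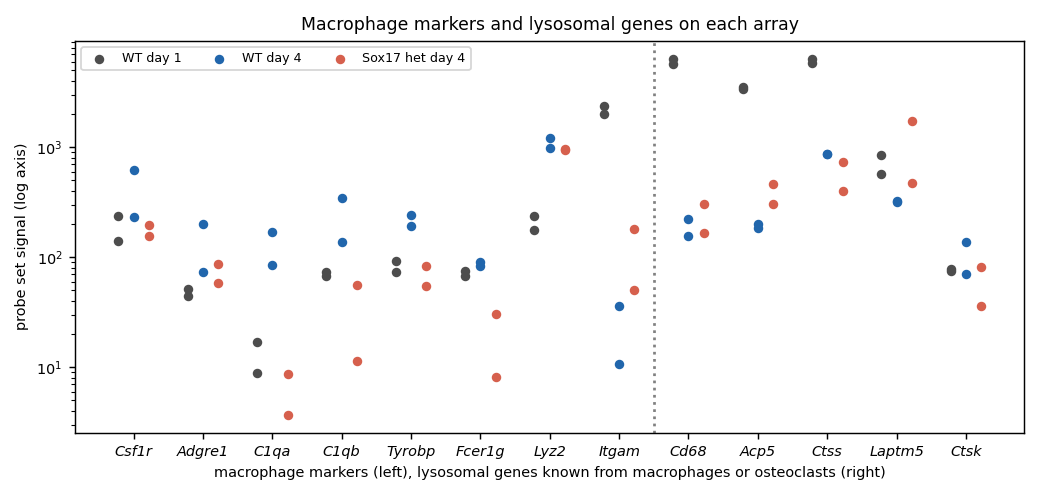
Points are probe set signals on single arrays (log axis) of 8 macrophage markers, left of the dotted line, and of 5 of the 42 genes known from macrophages or osteoclasts, right of it; heights are to be compared within a gene only. Cd68, Acp5 and Ctss are highest on the WT day 1 arrays, as is Itgam, while Adgre1, C1qa, C1qb, Tyrobp and Lyz2 read higher on both WT day 4 arrays than on both day 1 arrays.

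Markers of the uterine wall beneath the epithelium were read in the same way. The summed signal of 11 stromal markers was 13165 to 18953 on day 1, 2496 to 3274 in WT on day 4 and 1140 to 1694 in heterozygotes, and Fbln1 gave most of it on day 1. Without Fbln1 the sums were 3581 and 9008 on day 1, 1878 and 2895 in WT on day 4, and 492 and 917 in heterozygotes. With day, 6 of the 11 stromal markers were lower and 5 higher, with a median log2 change of -1.07. Of the 11, only Fbln1 passed in limma, where 13.3% of all genes did. Fbln1 read 9585 and 9945 on day 1, 618 and 379 in WT on day 4, and 648 and 777 in heterozygotes. The summed signal of 8 smooth muscle markers was 968 to 1006, then 358 to 531, then 201 to 247. Of these 8, 5 were lower and 3 higher with day, and 1 passed: Acta2 fell by 1.60 ± 0.23 (limma adjusted p = 0.023). The summed signals of endothelial, lymphocyte and neutrophil markers were at most 841, 865 and 405 on any array. With genotype, stromal markers had a median difference of -1.29, where that of the lysosomal genes was 0.06. Among the epithelial markers, Epcam read 25634 and 24071, then 16220.1 and 16834, then 15568 and 15142, and Krt8 read 29015 and 29696, then 25455 and 28373, then 28098 and 28452. Neither passed with day. Of the 12 epithelial markers, Krt7 and Elf3 fell by 2.33 and 1.25 and Cldn3 rose by 1.39 (limma adjusted p = 0.00911, 0.0257 and 0.0254), 9 did not pass, and the median log2 change was -0.20. The part of stromal, muscle or immune cells in the falls of the lysosomal genes was not tested.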

How the data were processed

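The authors deposited 1 linear intensity per probe set and array. The submitters' processing notes list Transcriptome Analysis Console, Affymetrix Expression Console and RMA, and give no versions. RMA gives log2 values with equal quantiles, and these signals have neither, so how they were summarised is unknown here. Per the labels' protocols, 100 ng of RNA was amplified and labelled with biotin.

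Of 45101 probe sets, the 34945 with 1 gene symbol were used. For each of 18193 genes the brightest probe set was kept (highest mean of log2(signal + 1) over the arrays), and the pseudocount of 1 makes dim genes change less. The model in limma 3.58.1 under R 4.3.3 had 1 coefficient for each group over all 6 arrays, 3 residual degrees of freedom, eBayes at its default and Benjamini-Hochberg adjustment over all genes. The fit was run on simulated data with known changes, as a check of the code and not of the calls made here. The number of arrays limits the precision. No labels name a batch.

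The 42 genes and all lists were chosen with earlier results of these data known. Values on every array were given for genes past the threshold, the 12 largest changes with day and with genotype, and Tfeb, Mcoln1, Lamp1, Lamp2, Cd68, Laptm5, Ctsl and Ctsb; Psap, Acp2 and the second probe sets were added after their values were seen. From each other list at most 4 genes of smallest p per comparison were named, with Csf1r, Adgre1, Lyz2, Epcam and Krt8. Of the 42, 26 had more than 1 probe set, and of the 50 others 13 had the opposite sign with day. Alternatives were quantile normalization, centring on the median, a pseudocount of 32, leaving out genes with a mean signal under 100, an intensity trend, a robust prior, fits on 4 arrays, averaging each gene's probe sets and leaving out each array.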

Additional observations from a re-analysis of the deposited data

How the results depend on the processing

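The medians kept their sign under every alternative run, and the counts moved. With day (1 higher, 16 lower, median -1.10), quantile normalization gave 4 higher and 19 lower, centring 1 and 11 with a median of -1.30 (Ctsz, Tpp1, Glb1, Atp6v1b2 and Atp6ap1 lost), a pseudocount of 32 gave 4 and 22, leaving out dim genes 4 and 24, the trend 4 and 25, the robust prior 1 and 15, the 4 arrays alone 0 and 6, and averaging a gene's probe sets 1 and 9 with a median of -0.84. Averaging probe sets lost Ctsc, Tpp1, Gla, Arsb, Gm2a, Atp6v1b2 and Atp6ap1. Leaving out single arrays gave medians from -1.21 to -1.07. Quantile normalization moved the median of all genes with day from 0.30 to 0.07 and centring to 0.10. With genotype (0 called, median 0.06), centring gave a median of 0.24 and the trend 1 higher. Leaving out single arrays, with or without the trend, gave 0 to 5 higher, 0 to 1 lower and medians from 0.01 to 0.14. Every genotype call in these ranges came from a fit that also used the trend. Between heterozygotes and WT day 1 (1 higher, 14 lower, median -0.88), centring gave 0 and 8. Leaving out dim genes gave 3 and 22, the trend 3 and 21, and the robust prior 1 and 11. The mean of probe sets gave 1 and 7, with a median of -0.67. Leaving out single arrays, with or without the trend, gave 0 to 3 higher and 0 to 27 lower, with medians from -0.97 to -0.74. In these fits, counts above 1 higher and 14 lower came only with the trend.

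Signs were followed only for the genes that were planned to have values on every array, and not for the other members. No called value changed sign. Among the genes followed, the uncalled values that did so with day were Ctsk (-0.14, quantile normalization) and, with the mean of probe sets, Mcoln1 (0.05) and Ctsb (0.27). With genotype they were, after centring, Ctsc (0.05), Glb1 (0.08), Man2b1 (0.03), Mcoln1 (0.04) and Lamp1 (0.10), and Ctsl with the mean of probe sets (-0.65). Against WT day 1, Laptm5 (-0.37) and Ctsb (0.09) did so with the mean of probe sets. Leaving out single arrays turned Atp6v0a1 (-0.53 to 0.11) and Ctsk (-0.14 to 0.83) with day, Cd68 (-0.17 to 0.71), Ctsa (-0.14 to 0.23), Ctsc (-0.32 to 0.07), Ctsl (-0.24 to 0.60), Glb1 (-0.32 to 0.13), Lamp1 (-0.14 to 0.01), Man2b1 (-0.31 to 0.02) and Tpp1 (-0.11 to 0.24) with genotype, and Ctsk (-1.09 to 0.07) and Laptm5 (-0.55 to 1.33) against WT day 1. The causes were not tested. The trend fits with an array left out, the macrophage medians on single arrays and the stromal sums without Fbln1 were chosen after seeing the data, and a lone array is assumed to vary like the other groups. No paired analysis was possible because the groups share no replicate numbers.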
